A study of Mus musculus with 8 samples.

Results

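The genes described here are 46 named genes of the hypoxia response and of glycolysis, measured in mouse fibroblast lines that carried no Pax6 insert, Pax6, or Pax6(5a). Members were the genes of a list chosen with earlier results of these data known. All probes annotated to these genes by symbol were taken from the Illumina Mouse Ref-8 V1.1 array. Of the 46 genes, 41 had a probe (57 probes in all), out of 15967 genes and 24613 probes on the array. No probe was matched to Epas1, Kdm3a, Gpi1, Pgam1 or Eno1, so these 5 were not analysed here.

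The study asked which genes change when either of the isoforms of the transcription factor Pax6 is expressed in FlpIn-3T3 cells, a 3T3 fibroblast line with an integration site for Flp recombinase. The control line was the FlpIn-3T3 host cell, grown in Zeocin, with 2 RNA preparations from passage 13 and 1 from passage 19. The Pax6(5a) line carried the cDNA of the isoform with the exon 5a insertion in its paired domain, with 2 preparations from passage 8 and 1 from passage 13. The Pax6 line carried the cDNA without that exon, with 1 preparation from passage 9 and 1 from passage 15. Both insert lines were grown in hygromycin B in place of Zeocin and each is a single line, so the insert, the selection drug and the history of the line cannot be told apart. The probe for Pax6 itself was detected on 0 of 8 arrays (log2 signals from 5.50 to 5.83). Its position relative to the inserted cDNA is not given in the sources used here, so it is no check of the inserts.

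Cells sense oxygen through hypoxia-inducible factor (HIF), a pair of proteins of which the alpha subunit, such as Hif1a, is made continuously and destroyed when oxygen is present. The prolyl hydroxylases Egln1, Egln2 and Egln3 mark the alpha subunit, the ubiquitin ligase component Vhl binds the marked form, and the subunit that escapes pairs with Arnt on DNA that holds the core letters ACGTG or GCGTG. Targets of HIF include most enzymes of glycolysis, the lactate and pyruvate switches Ldha and Pdk1, and Egln1 and Egln3 themselves. Fibroblasts in culture take up glucose and release lactate, and several glycolytic enzymes are among their most abundant transcripts.

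Levels are log2 quantile-normalized signals. A probe was counted as detected where its detection p-value was below 0.01, and the dimmest detected probes of an array lay at log2 6.25 to 6.34. Between 10083 and 10685 probes were detected on an array, and the raw median signal was between 63.6 and 70.6. Arrays correlated at 0.994 to 0.997 within a line and at 0.988 to 0.993 between lines. Of 10 fibroblast markers, 7 were detected on all 8 arrays, Sparc on none, and the fibroblast list had a mean log2 signal of 9.66 in the control, 9.49 in the Pax6(5a) and 9.40 in the Pax6 line. None of the measured markers of epithelium (6), leukocytes (4), adipocytes (3) or muscle (3) was detected on any array. Of 5 endothelial markers, Cdh5 was detected on all 8 arrays and the other 4 on none. Of 3 measured neuronal markers, Tubb3 was detected on all 8 arrays and each of the others on at least 1. The part of these markers in the results was not tested. Of the 41 measured members, 28 were detected on all 8 arrays and 32 on at least 1. The brightest probe of the remaining 9, Hif1a, Bnip3, Car12, Higd1a, Slc2a3, Hk1, Pgk1, Slc16a1 and Gbe1, was detected on no array. Whether these probes read their transcripts could not be checked, so an undetected signal here does not show that a gene is silent. In bulk RNA, fewer cells expressing a gene and less RNA in each cell cannot be told apart.

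Among the 4 members that passed the test in the Pax6 line, a promoter sequence of RefSeq (GRCm38.p6, 250 bases before to 50 after the start of the gene) was matched for Mgarp, Egln3 and Egln1. They are shown because these genes moved and HIF is known to act through its core letters. Each runs 5′ to 3′ on the strand of the gene, in lower case, with matches to ACGTG or GCGTG on either strand in capitals (CACGT and CACGC are their reverse complements, and the letters CACGTG, the core of the E-box, hold ACGTG on both strands).
Mgarp, chr3:51396498-51396797, minus strand: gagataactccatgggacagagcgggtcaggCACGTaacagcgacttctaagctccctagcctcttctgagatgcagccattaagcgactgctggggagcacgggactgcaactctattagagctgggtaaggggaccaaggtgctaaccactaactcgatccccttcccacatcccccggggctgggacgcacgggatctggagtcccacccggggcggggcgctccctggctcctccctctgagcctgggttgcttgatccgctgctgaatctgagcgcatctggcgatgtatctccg
Egln3, chr12:54203825-54204124, minus strand: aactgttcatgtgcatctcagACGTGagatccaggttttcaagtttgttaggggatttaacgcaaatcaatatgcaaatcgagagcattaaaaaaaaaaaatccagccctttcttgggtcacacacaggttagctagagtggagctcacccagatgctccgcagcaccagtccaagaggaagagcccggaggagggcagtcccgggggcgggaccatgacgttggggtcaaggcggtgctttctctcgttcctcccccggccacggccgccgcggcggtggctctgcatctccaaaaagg
Egln1, chr8:124949205-124949504, minus strand: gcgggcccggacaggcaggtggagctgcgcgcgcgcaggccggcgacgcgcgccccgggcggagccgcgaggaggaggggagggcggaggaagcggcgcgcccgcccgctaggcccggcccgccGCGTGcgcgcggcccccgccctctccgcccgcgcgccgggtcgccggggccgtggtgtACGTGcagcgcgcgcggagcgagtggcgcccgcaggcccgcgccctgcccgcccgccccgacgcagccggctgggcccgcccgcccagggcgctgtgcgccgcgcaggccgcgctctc

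Each of these 3 windows held 1 match to ACGTG, and that of Egln1 also held 1 to GCGTG. Over all 60 promoter entries of 42 member genes, ACGTG was found in 30 (50%) and either core in 46 (76.7%). Over all 32851 entries of the table, ACGTG was found in 19.6% and either core in 43.8%. The median GC content of the members' entries was 62%, against 52.7% over all entries. A match is a run of letters and not a bound site. No promoter entry was matched to Epas1, Ndrg1, Bnip3l or Slc2a3.

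In the Pax6 line, 4 of the 41 measured members were higher than in the control line and 0 were lower. The 4 were Mgarp, Ndrg1, Egln3 and Egln1, with rises between 1.504-fold and 4.17-fold. They are known targets of HIF, but so are many members that were not called. Of 11 measured members grouped as other hypoxia targets, 2 were called with Pax6 and 9 were not. Their log2 differences ran from -0.11 (Ddit4) to 2.06 (Mgarp), 9 positive and 2 negative, with a median of 0.14. The part of HIF in the rises was not tested. In the Pax6(5a) line, Mgarp was higher and 0 members were lower. A gene was called where its brightest probe had an adjusted p below 0.01 and a fold change of at least 1.5 (limma, Benjamini-Hochberg over all 24613 probes). With Pax6, the 4 members called higher are 9.76% of those measured, beside 1.03% of all genes higher and 1.42% lower. With Pax6(5a), the 1 member is 2.44%, beside 0.551% of all genes higher and 0.651% lower. Under the stricter threshold of adjusted p below 0.001 and a fold change of at least 1.7, 2 members were called with Pax6 and 0 with Pax6(5a). The 2 comparisons share the 3 control arrays, and these are shares of a list chosen with earlier results of these data known.

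Mgarp, a protein of mitochondria that is induced by HIF, changed more than any other member. Its log2 signal was 7.10, 7.20 and 6.61 on the control arrays of passages 13, 13 and 19. It was 8.02, 7.66 and 8.01 on the Pax6(5a) arrays of passages 8, 8 and 13, and 9.14 and 8.92 on the Pax6 arrays of passages 9 and 15. The 3 lines did not overlap, with the control lowest, Pax6(5a) between and Pax6 highest. Against the control the rise was 4.17-fold with Pax6 (log2 fold change 2.06, SE 0.16, adjusted p = 7e-06). With Pax6(5a) it was 1.90-fold (log2 fold change 0.93, SE 0.14, adjusted p = 0.0029), and at passage 13, which both lines hold, the log2 signal was 0.86 higher with Pax6(5a). The Pax6 line was 2.20-fold above the Pax6(5a) line (log2 fold change 1.14, SE 0.16, adjusted p = 0.0028). The Pax6 call was kept under all 20 alternative analyses, with log2 fold changes from 1.88 to 2.52. The Pax6(5a) call for Mgarp was lost without control replicate 1 (adjusted p = 0.0104), Pax6(5a) replicate 1 (0.0229) or Pax6(5a) replicate 3 (0.0101), and was kept under 14 of 20. It was also lost with passage number in the model, where the log2 fold change was 0.72 (adjusted p = 0.0136). The call between the Pax6 lines was also kept under 14 of 20, and was lost without Pax6(5a) replicate 1 (0.0106) or 2 (0.0138) and without Pax6 replicate 1 (0.0443) or 2 (0.0127).

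Ndrg1, a gene of growth arrest and differentiation that responds to low oxygen, was higher in the Pax6 line by both of its probes. With the brighter probe its log2 signal was 8.40, 8.44 and 8.55 in the control, 8.64, 8.67 and 8.44 with Pax6(5a), and 9.49 and 9.08 with Pax6. By this probe the Pax6 arrays lay above all 6 others, and the other 2 lines overlapped. The rise against the control was 1.77-fold (log2 fold change 0.82, SE 0.12, adjusted p = 0.00099), while the Pax6(5a) difference was 0.12 (SE 0.11, adjusted p = 0.71). The second probe gave 1.83-fold with Pax6 (log2 fold change 0.87, SE 0.10, adjusted p = 0.00023) and a difference of 0.27 with Pax6(5a) (adjusted p = 0.15), whose arrays at 8.24, 8.36 and 8.24 lay above the control arrays at 7.96, 8.04 and 8.02. The Pax6 line was 1.63-fold above the Pax6(5a) line by the brighter probe (log2 fold change 0.70, SE 0.12, adjusted p = 0.0093), and the second probe gave 0.60 (adjusted p = 0.01, not below the limit). Of 20 alternatives, the second probe kept the Pax6 call under all 20 and the brighter under 17, and without Pax6 replicate 1 the brighter gave an adjusted p of 0.0144. The difference between the insert lines was kept under only 8 of 20, and was lost without any 1 of 6 arrays: control replicate 1 (adjusted p = 0.0178) or 2 (0.0192), Pax6(5a) replicate 1 (0.0337), 2 (0.023) or 3 (0.0262), and Pax6 replicate 1 (0.117).

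Among the hydroxylases, Egln3 and Egln1 rose with Pax6 and Egln2 did not pass the test. The log2 signal of Egln3 was 7.29, 7.11 and 7.25 in the control, 7.65, 7.71 and 8.04 with Pax6(5a), and 7.81 and 8.12 with Pax6. All 5 arrays of the insert lines lay above the 3 control arrays, and the insert lines overlapped. Egln3 was 1.68-fold higher with Pax6 (log2 fold change 0.75, SE 0.13, adjusted p = 0.0029). With Pax6(5a) the difference was 0.59 (1.503-fold, SE 0.11, adjusted p = 0.011), just short of the limit on p, and the insert lines differed by 0.16 (SE 0.13, adjusted p = 0.71). In the alternatives here and below, the replicate block groups arrays by replicate number, which only counts preparations and pairs nothing in the design. Egln3 was called higher with Pax6(5a) with passage number in the model (0.80, adjusted p = 0.000646), with earlier or later passage as a block (adjusted p = 0.000531) and with the replicate block (0.00511). It was also called with the arrays of the 2 lines only (0.00773). Leaving out either Pax6 array gives that same fit for this comparison and is no separate result. The Pax6 call for Egln3 was kept under 15 of 20 alternatives and was lost without control replicate 1 (adjusted p = 0.0101), control replicate 2 (0.0172) or Pax6 replicate 2 (0.0414).

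For Egln1, the log2 signal of the brightest of 3 probes was 7.90, 7.97 and 8.11 in the control, 8.08, 7.96 and 8.26 with Pax6(5a), and 8.61 and 8.55 with Pax6. The Pax6 arrays lay above the 6 others, while control and Pax6(5a) arrays overlapped. The rise with Pax6 was 1.504-fold (log2 fold change 0.59, SE 0.10, adjusted p = 0.0037), at the edge of the fold limit. The other probes of Egln1 gave 0.37 (adjusted p = 0.028) and 0.35 (adjusted p = 0.045), neither of them called. With Pax6(5a) the brightest probe differed from the control by 0.11 (SE 0.09, adjusted p = 0.68), and the insert lines differed by 0.48 (SE 0.10, adjusted p = 0.033), not called. Background correction by neqc or normexp, median scaling and cyclic loess each ended the Egln1 call. So did earlier or later passage as a block, averaged preparations and the culture as a random block. The call was kept under 9 of 20 alternatives. It was lost without control replicate 1 (adjusted p = 0.0205), control replicate 2 (0.0189), Pax6 replicate 1 (0.0392) or Pax6 replicate 2 (0.0214).

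The other members of the oxygen-sensing group were not called in either comparison. Egln2 ran from 10.39 to 10.68 over the 8 arrays, with log2 differences of -0.19 with Pax6 (95% interval from -0.39 to 0.00) and -0.10 with Pax6(5a) (from -0.28 to 0.07). Hif1a, the regulated subunit, had signals from 5.46 to 5.73 on the 8 arrays, below detection on each. Its difference of 0.03 between Pax6 and control is therefore one between undetected signals. Arnt, its partner, was detected on all 8 arrays by its brighter probe at 8.28, 8.35 and 8.12 in the control, 8.31, 8.28 and 8.20 with Pax6(5a), and 8.43 and 8.27 with Pax6. The lines of Arnt overlapped, and its differences were 0.10 (95% interval from -0.10 to 0.30) and 0.01 (from -0.17 to 0.19). Vhl was detected on 1 array, the Pax6(5a) array of passage 13, at 6.38, and lay between 5.85 and 6.03 on the 7 others. Of 15 measured genes of a separate list of oxygen-sensing and HIF complex partners, limma called 0 in each of the 4 comparisons. At an unadjusted p below 0.05, 1 was found with Pax6, 3 with Pax6(5a), 3 between the insert lines and 1 between passages. Over all 15967 genes these counts were 3094, 2663, 2052 and 2420. The median log2 difference of these 15 from the control was -0.02 with Pax6 and -0.04 with Pax6(5a).

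**Figure D1:**
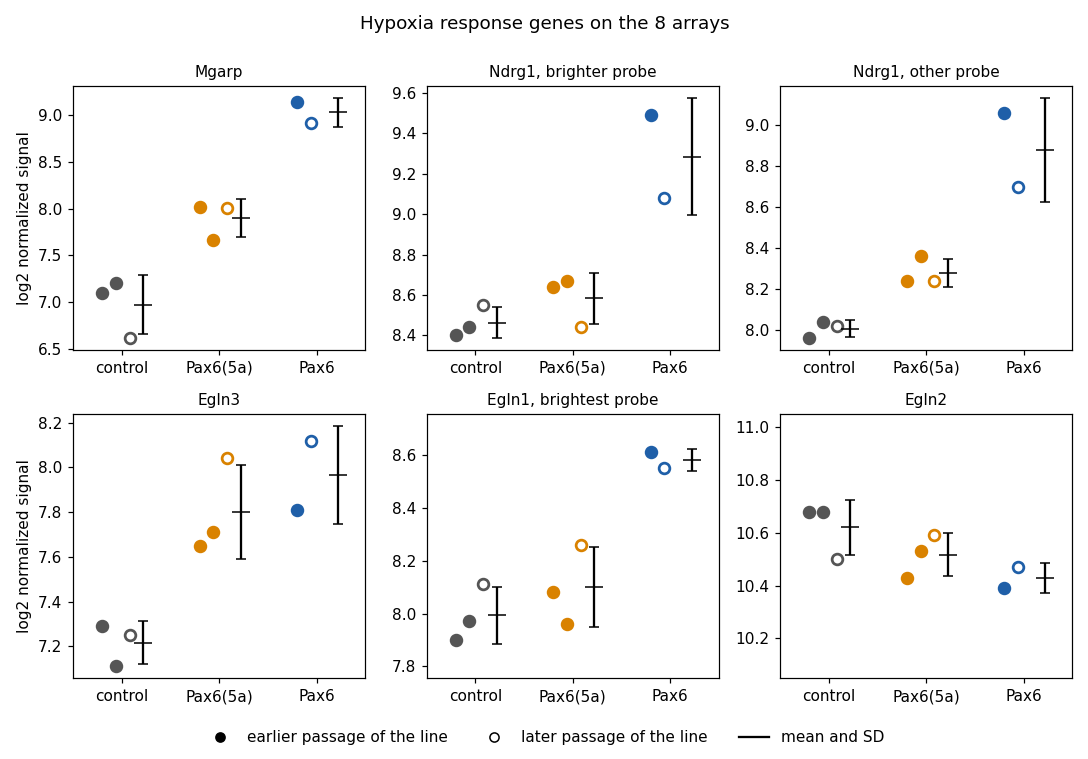
Log2 normalized signal (vertical axis, scaled separately for each panel) of Mgarp, Ndrg1, Egln3, Egln1 and Egln2 on the 8 arrays of the control (3), Pax6(5a) (3) and Pax6 (2) lines, with filled points for the earlier passage of a line, open points for the later, and the mean and SD beside them. Both Pax6 arrays lay above all control arrays for Mgarp, Ndrg1, Egln3 and Egln1, and the Pax6(5a) arrays lay apart from the control for Mgarp and Egln3 and overlapped it for Egln1 and the brighter Ndrg1 probe.

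The members that came nearest to a call without reaching it were Pfkfb3, Ldhb and Ankrd37 with Pax6, and Egln3, Ldhb and Adm with Pax6(5a). Pfkfb3 makes the activator of phosphofructokinase, fructose 2,6-bisphosphate. Its log2 signal was 6.58, 6.55 and 6.68 in the control, 6.98, 6.93 and 6.89 with Pax6(5a), and 6.96 and 7.15 with Pax6, so that all 5 insert arrays lay above the control. The difference was 0.46 with Pax6 (SE 0.09, adjusted p = 0.0075, 1.37-fold and thus under the fold limit) and 0.33 with Pax6(5a) (SE 0.08, adjusted p = 0.034).

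Ldhb encodes the lactate dehydrogenase subunit that favours the conversion of lactate to pyruvate. Among detected members it had the most negative differences from the control in both insert lines. Its log2 signal was 11.45, 11.17 and 10.99 in the control, 10.74, 10.68 and 10.37 with Pax6(5a), and 10.69 and 10.61 with Pax6. All 5 insert arrays lay below the 3 control arrays, and within each line the later passage was the lowest. The difference was -0.55 with Pax6 (SE 0.13, adjusted p = 0.027) and -0.61 with Pax6(5a) (SE 0.12, adjusted p = 0.013). Neither was called, but Ldhb was called lower with both when passage number was added to the model (-0.68, adjusted p = 0.000785, and -0.85, adjusted p = 0.000511) and with the replicate block (0.00079 and 0.000719). With Pax6(5a) it was also called with earlier or later passage as a block (0.000536), with a variance trend and robust prior (0.00993) and without control replicate 3 (0.00619).

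Adm, the vasodilator peptide adrenomedullin, had log2 signals of 6.80, 6.57 and 6.17 in the control, 7.23, 7.25 and 6.97 with Pax6(5a), and 7.07 and 6.98 with Pax6. It was undetected on 1 array, the control of passage 19. The insert arrays lay above the control, with differences of 0.64 with Pax6(5a) (SE 0.13, adjusted p = 0.019) and 0.52 with Pax6 (SE 0.15, adjusted p = 0.064). Adm was called with Pax6(5a) with earlier or later passage as a block (adjusted p = 0.00056), with the replicate block (0.000984) and without control replicate 1 (0.00926), while with passage number in the model its difference was 0.34 (adjusted p = 0.124). Ankrd37, an ankyrin repeat protein induced by HIF, was at 6.95, 7.07 and 7.07 in the control, 7.21, 7.08 and 7.64 with Pax6(5a), and 7.58 and 7.49 with Pax6. Its differences were 0.50 with Pax6 (SE 0.13, adjusted p = 0.041) and 0.28 with Pax6(5a) (SE 0.12, adjusted p = 0.27), and the Pax6(5a) array of passage 13 lay with the Pax6 arrays. Ankrd37 was called with Pax6 with passage number in the model (0.59, adjusted p = 0.00921) and with the replicate block (0.60, adjusted p = 0.0075).

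Over all 41 measured members, the log2 difference from the control was positive in 29 with Pax6 and in 30 with Pax6(5a), and its median was 0.10 in each, beside 0.00 over all genes. Over all 15967 genes it was positive in 8153 with Pax6 and in 8063 with Pax6(5a). An unadjusted p below 0.05 was found for 16 members with Pax6 and 13 with Pax6(5a), and for 3094 and 2663 of all genes. The mean log2 signal of the members was 8.40 to 8.45 on the control arrays, 8.53 to 8.62 on the Pax6(5a) arrays and 8.62 to 8.64 on the Pax6 arrays.

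**Figure D2:**
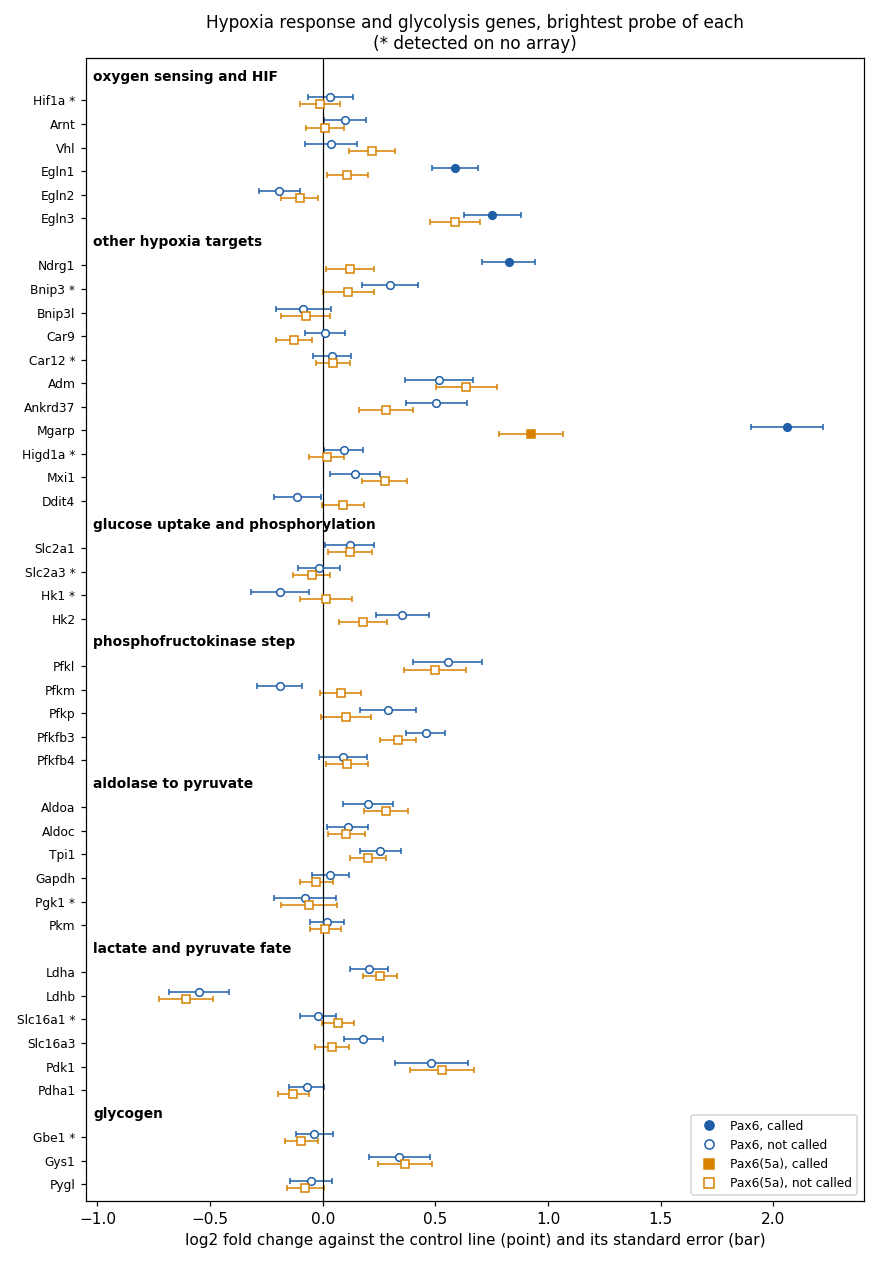
Log2 fold change of each of the 41 measured members against the control line (horizontal axis, points) with its standard error (bars), for Pax6 (circles) and Pax6(5a) (squares), grouped by role, with filled points for genes called and an asterisk at genes detected on no array. Mgarp at 2.06 and 0.93 lay farthest to the right in both lines and Ldhb at -0.55 and -0.61 farthest to the left.

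Along the pathway of glycolysis itself, 0 members were called. Of the 4 measured genes of glucose uptake and phosphorylation, the glucose transporter Slc2a1 differed from the control by 0.12 in each insert line, and hexokinase 2 (Hk2) by 0.35 with Pax6 (adjusted p = 0.11) and 0.18 with Pax6(5a). Of the 5 genes of the phosphofructokinase step, the differences ran from -0.19 for the muscle-type subunit Pfkm to 0.55 for the liver-type subunit Pfkl with Pax6, and from 0.08 for Pfkm to 0.50 for Pfkl with Pax6(5a). From aldolase to pyruvate, the 6 measured genes lay between -0.08 (Pgk1, undetected) and 0.25 (Tpi1) with Pax6, and between -0.06 (Pgk1) and 0.28 (Aldoa) with Pax6(5a). The second probe of Tpi1, triose phosphate isomerase, gave -0.16 with Pax6(5a) where the brighter gave 0.20. The second probe of Mxi1, a repressor of the Myc network, was detected on 0 of 8 arrays and gave -0.05 with Pax6(5a). The brighter Mxi1 probe gave 0.27 from a control mean below the detection limit.

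Gapdh, which catalyses the oxidation step of glycolysis and often serves as a reference gene, had 3 probes between 13.64 and 14.32. By the brightest, its signal was 14.32, 14.27 and 14.20 in the control, 14.22, 14.18 and 14.31 with Pax6(5a), and 14.32 and 14.27 with Pax6. The lines overlapped, with differences of 0.03 with Pax6 (95% interval from -0.15 to 0.21) and -0.03 with Pax6(5a) (from -0.19 to 0.13). The other 2 probes gave -0.01 and 0.17 with Pax6, neither called. Pyruvate kinase, Pkm, ran from 14.01 to 14.06 over the 8 arrays. The brightest signal on an array was 14.56, so these probes lie near the top of the scale. The probe sequences are not in the sources used here, and for Gapdh, Pkm, Tpi1 and Ldha, which have many processed pseudogenes, it could not be checked whether a probe reads other copies.

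Pfkl, Pdk1, Gys1 and Ldha fell outside the rule for named genes and were chosen after their values were seen, since all insert arrays lay above all control arrays for each. Pfkl was at 10.23, 10.22 and 10.05 in the control, 10.51, 10.49 and 10.99 with Pax6(5a), and 10.51 and 10.93 with Pax6 (differences of 0.55, adjusted p = 0.049, with Pax6 and 0.50, adjusted p = 0.066, with Pax6(5a)). Pdk1, the kinase that inhibits pyruvate dehydrogenase, was at 8.76, 8.81 and 8.57 in the control, 9.07, 9.00 and 9.66 with Pax6(5a), and 9.15 and 9.25 with Pax6 (0.48, adjusted p = 0.11, and 0.53, adjusted p = 0.063). Ldha, the lactate dehydrogenase subunit that favours lactate production, was at 13.76, 13.70 and 13.75 in the control, 14.10, 13.94 and 13.94 with Pax6(5a), and 13.91 and 13.97 with Pax6 (0.20, adjusted p = 0.22, and 0.25, adjusted p = 0.096). Gys1, glycogen synthase, was at 8.82, 8.87 and 8.94 in the control, 9.09, 9.18 and 9.46 with Pax6(5a), and 8.99 and 9.45 with Pax6 (0.34, adjusted p = 0.19, and 0.36, adjusted p = 0.13). The other 2 probes of Gys1 were undetected and gave 0.06 and -0.01 with Pax6(5a). None of the 4 genes was called in either comparison. With passage number in the model, Pfkl was called higher with Pax6 and Gys1 with Pax6(5a). The brighter Tpi1 probe separated in the same way, at 13.21, 13.16 and 13.08 in the control, 13.38, 13.27 and 13.40 with Pax6(5a), and 13.30 and 13.50 with Pax6. Tpi1 was not called either, and its second probe overlapped between the lines. The non-overlap of few arrays is a description of genes picked for it. How many of all genes separate in this way was not counted.

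**Figure D3:**
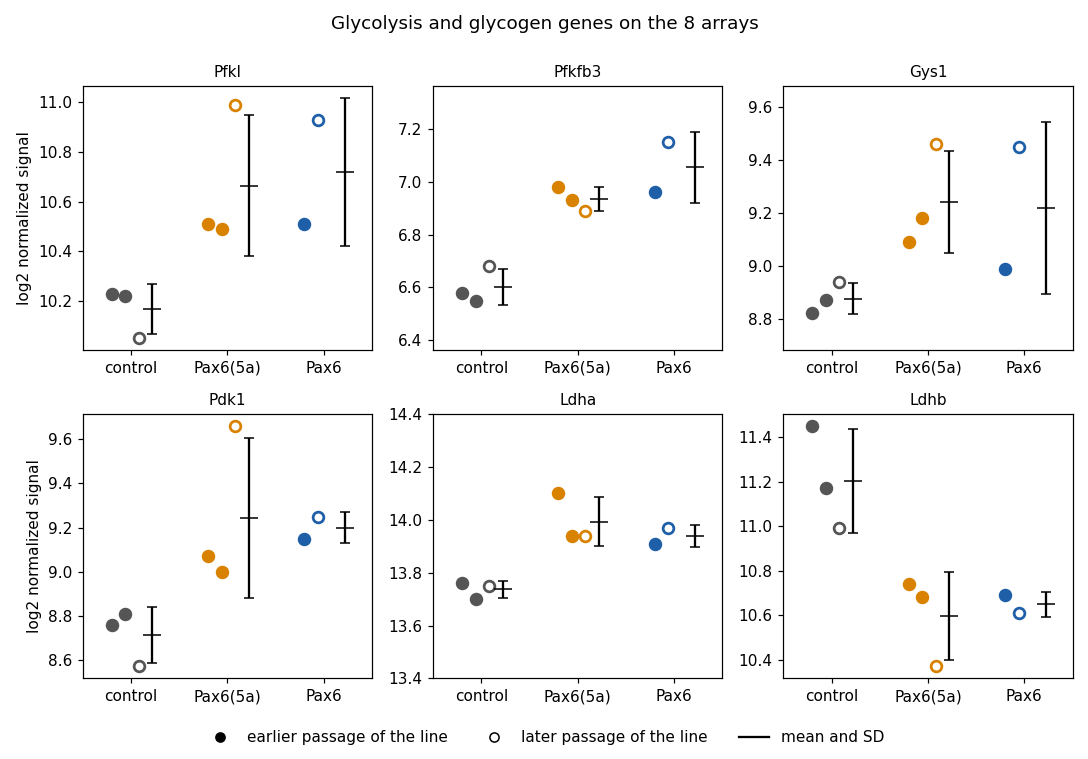
Log2 normalized signal (vertical axis, scaled separately for each panel) of Pfkl, Pfkfb3, Gys1, Pdk1, Ldha and Ldhb on the 8 arrays, with filled points for the earlier passage of a line, open points for the later, and the mean and SD beside them. For the first 5 genes every Pax6(5a) and Pax6 array lay above the control arrays and for Ldhb every one lay below, though no gene of the 6 was called. Pfkl, Gys1, Pdk1 and Ldha were picked for this separation, and its share over all genes was not counted.

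In the direct comparison of the insert lines, 2 of the 41 members were higher with Pax6 than with Pax6(5a), Mgarp and Ndrg1 (4.88%, beside 0.251% of all genes higher and 0.426% lower). None was lower by the same limma test. An unadjusted p below 0.05 was found for 4 of 41 members in either direction, and for 2052 of all 15967 genes. The median difference of the members between the insert lines was 0.03, and 24 of 41 were positive.

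Passage was compared within lines, with 3 later and 5 earlier arrays. No member was called higher or lower at the later passage, where 0.15% of all genes were called higher and 0.138% lower by limma. At an unadjusted p below 0.05 there were 12 of 41 members and 2420 of all 15967 genes. The members with the lowest p were Adm (-0.31, adjusted p = 0.07) and Gys1 (0.28, adjusted p = 0.07). The other Gys1 probes, undetected, gave -0.01 and 0.06. Probes also differed in sign between passages for Tpi1 (0.04 by the brighter, -0.32 by the second), Pfkfb4 (-0.19 and 0.06) and Arnt (-0.15 and 0.002). Of the 32 detected members, 14 were higher at the later passage in the control line, 20 in the Pax6(5a) line and 10 in the Pax6 line. The differences ran from -0.53 to 0.20 in the control, from -0.37 to 0.63 with Pax6(5a) and from -0.41 to 0.46 with Pax6. Pdk1 was 0.63 higher at the later passage with Pax6(5a), 0.10 higher with Pax6 and 0.21 lower in the control (-0.21), and Pfkl was 0.49 and 0.42 higher with the inserts and lower in the control (-0.18). Over the 3 pairs of lines, 0 members passed the test of a difference in passage effect, and the lowest adjusted p was 0.1, for Pdk1 in Pax6(5a) against control. Each later group is 1 array, so a passage difference within a line has no replicate of its own. The counts of direction within each line were not made over all genes.

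**Figure D4:**
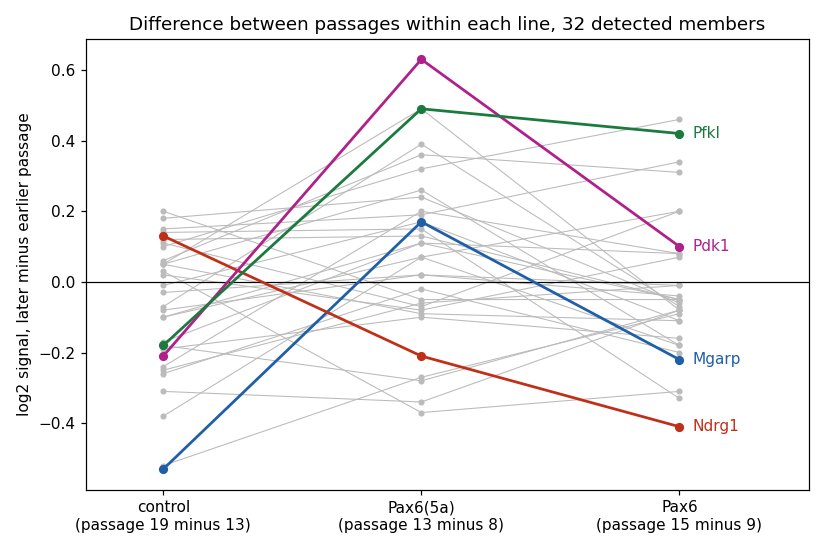
Difference in log2 signal between the later and the earlier passage (vertical axis) in the control, Pax6(5a) and Pax6 lines for the 32 members detected on at least 1 array, 1 line per gene, with Pdk1, Pfkl, Mgarp and Ndrg1 in colour. Pdk1 and Pfkl lay below 0 in the control and above 0 in both insert lines, Mgarp lay at -0.53, 0.17 and -0.22, and Ndrg1 at 0.13, -0.21 and -0.41.

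Other genes of the same pathways, from lists that hold no member, are given for context. These lists were also chosen with earlier results of these data known. Of 60 measured further targets of HIF, 7 were higher (11.7%) and 1 lower (1.67%) with Pax6, beside 1.03% and 1.42% of all genes. With Pax6(5a) 2 were higher (3.33%, beside 0.551%). Of the 60, 1 was lower with Pax6 than with Pax6(5a) (1.67%, beside 0.426%), and 2 were higher at the later passage (3.33%, beside 0.15%). Their median log2 difference from the control was 0.04 with Pax6 and 0.05 with Pax6(5a). With Pax6, Vegfa, the growth factor of blood vessels, fell by 1.32 on the log2 scale (SE 0.16, adjusted p = 0.00026), a direction opposite to that of the 4 members. Edn1, the vasoconstrictor endothelin 1, rose at least 1.97-fold (adjusted p = 0.00027) from a control mean below the detection limit. The calls of Vegfa and Edn1 were kept under all 20 alternatives. The others that rose with Pax6 were Plaur, the urokinase receptor (1.91-fold), Angptl4, an inhibitor of lipoprotein lipase (1.90-fold), Ak4, a mitochondrial adenylate kinase (1.83-fold), P4ha2, a collagen prolyl hydroxylase (1.63-fold), Tfrc, the transferrin receptor (1.60-fold), and Dusp1, a phosphatase of MAP kinases (1.55-fold), with adjusted p from 0.0029 to 0.0068. All 6 lost the call with neqc background correction and with preparations of the same passage averaged. Without control replicate 1 all 6 lost the call (adjusted p from 0.0131 to 0.0305). Without control replicate 2 all but Dusp1 did (0.0209 to 0.0272), without control replicate 3 Ak4 (0.0118) and Angptl4 (0.0185), and without Pax6(5a) replicate 1 Ak4 (0.0105) and Plaur (0.0107). Without Pax6 replicate 1, Angptl4 (0.0554) and Plaur (0.0745) lost it, and without Pax6 replicate 2 all but Plaur did (0.0389 to 0.0749).

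With Pax6(5a), Angptl4 rose 2.49-fold (SE 0.16 on the log2 scale, adjusted p = 0.00048). Pdgfb, a growth factor for mesenchymal cells, rose at least 1.56-fold from below the detection limit (adjusted p = 0.00037). Averaged preparations ended both calls, and neqc ended that of Angptl4. Pdgfb was at least 1.503-fold lower with Pax6 than with Pax6(5a) (adjusted p = 0.0012), a call lost without Pax6 replicate 1 (adjusted p = 0.0151) or 2 (0.0114). Averaged preparations and neqc also ended this Pdgfb call. The later passage was higher for Bhlhe40, a transcriptional repressor of the circadian clock (1.57-fold, adjusted p = 0.0037). It was also higher for Stc1, the secreted glycoprotein stanniocalcin 1 (at least 1.44-fold, adjusted p = 0.0072). Both passage calls were lost with neqc and with averaged preparations. Bhlhe40 lost the call without any Pax6(5a) or Pax6 array (adjusted p from 0.0111 to 0.0543), and Stc1 without any control or Pax6(5a) array (0.0121 to 0.0944).

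The 42 measured further genes of glycolysis and glycogen had a median log2 difference of 0.01 with each insert. Of these, Slc2a6, a lysosomal sugar transporter, fell by 0.72 on the log2 scale with Pax6 (SE 0.10, adjusted p = 0.00064) and by 0.64 with Pax6(5a) (SE 0.09, adjusted p = 0.0013). Eno3, the muscle form of enolase, rose 1.76-fold with Pax6(5a) (SE 0.12 on the log2 scale, adjusted p = 0.0015). Without control replicate 3, Slc2a6 with Pax6(5a) fell under the fold limit (-0.54), and without Pax6(5a) replicate 2 Eno3 had an adjusted p of 0.0116. With passage number in the model both calls with Pax6(5a) were lost. Slc2a6 was at -0.53 (adjusted p = 0.00713), under the fold limit, and Eno3 at 0.5848 (adjusted p = 0.00553), just under it. Averaged preparations also ended both calls with Pax6(5a), and neqc ended that of Eno3. Of 40 measured genes of the pentose phosphate pathway and of the entry to the citric acid cycle, limma called 0 in each comparison. An unadjusted p below 0.05 was found for 9 with Pax6, 8 with Pax6(5a), 8 between the insert lines and 14 between passages. For all 15967 genes the counts were 3094, 2663, 2052 and 2420. The median difference of the 40 genes from the control was 0.00 with Pax6 and 0.01 with Pax6(5a).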

How the data were processed

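Scanner-level probe intensity and detection p-values were deposited for 8 Illumina arrays. Per the study's methods the authors applied quantile normalization and made their comparisons in limma (version not given in the sources used here), and quantile normalization of the deposited intensity here gave the authors' normalized values to a relative difference of 5e-10. Signals were taken to log2 without background correction or probe filter. Lines were compared with limma 3.58.1 in R 4.3.3 over all 24613 probes, Benjamini-Hochberg adjusted, all 8 arrays in 1 fit. The passage fit held line and later against earlier passage. A gene was represented by its brightest probe; 20984 probes had 1 gene symbol, 1 had several and 3628 had none. A bound ("at least") is against the detection limit where a group's mean lay below it. Replicates are RNA preparations, which the sources do not tie to separate cultures, so p-values measure the spread between preparations. The fit that compared lines held no passage term, so its spread also includes differences between the passages of a line. The Pax6 line has 1 preparation from each passage, so its spread between preparations cannot be told apart from a passage difference. The number of arrays limits the precision.

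Members and lists were chosen with earlier results of these data known. Genes named were members called in any comparison, the 3 nearest to a call in each insert line, and list genes called. Hif1a, Arnt, Vhl, Egln1, Egln2, Egln3 and Gapdh were always named. So were members whose probes differed in sign with an unadjusted p below 0.05 for any of them. On simulated data for Pax6 against control, with 24613 probes, 22% of 1.5-fold, 71% of 1.7-fold, 87.5% of 2-fold and 98.5% of 3-fold changes were called. Alternatives covered background correction, normalization, filter, variance model, passage, blocks, averaging, thresholds and leaving out each array.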

Additional observations from a re-analysis of the deposited data

How the results depend on the processing

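The number of members called with Pax6 was 4. It was 1 with background correction by neqc, 1 with preparations of the same passage averaged (Mgarp in each), 7 with passage number in the model and 2 at the stricter threshold. It was 3, without Egln1, with normexp background correction, median scaling, cyclic loess, earlier or later passage as a block, and the culture as a random block. Leaving out each array gave 2 to 4, with 2 without control replicate 1 or 2 or Pax6 replicate 1 or 2. With Pax6(5a) the number was 1. It was 0 with neqc, 0 with averaging, 0 at the stricter threshold, 2 with a variance trend and robust prior, 2 with the arrays of both lines only, 3 with passage number (Egln3, Gys1 and Ldhb, without Mgarp), 4 with earlier or later passage as a block and 0 to 2 without each array (0 without Pax6(5a) replicate 1 or 3, 2 without control replicate 3, Pax6 replicate 1 or 2). Between the insert lines the number was 2. It was 0 with neqc, 0 with averaging, 0 at the stricter threshold, 1 with probes detected on at least 2 arrays, 1 with the arrays of both lines only, 1 with the culture as a random block and 0 to 2 without each array (0 without Pax6(5a) replicate 1 or 2 or Pax6 replicate 1, 1 without control replicate 1 or 2, Pax6(5a) replicate 3 or Pax6 replicate 2). The cause was not tested. Between passages it was 0 under each alternative. The replicate numbers only count preparations: deviations of same-numbered arrays correlated at -0.209 to 0.255, and a fit with the replicate block called 6 members with Pax6, 4 with Pax6(5a) and 1 between the insert lines. No called gene changed direction. Other background corrections and normalizations moved the median of all genes by at most 0.01, though the Egln1 call with Pax6 was lost under each. Probes at the detection limit carry little information on change.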
